A study of Mus musculus with 3 samples.

Results

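The mouse genes *Epor*, *Csf3r*, *Csf1r*, *Csf2rb*, *Csf2rb2* and *Il7r* encode receptors, or receptor chains, through which cytokines act on the erythroid, granulocyte, macrophage, shared myeloid and lymphoid lineages. They were chosen by name for these lineages, and are 6 of the 21755 protein-coding genes of chromosomes 1 to 19 and X. Their chromatin was read from the ATAC library of hematopoietic stem cells (HSCs) of 8-week-old wild-type mice of the C57BL6/J strain, untreated as far as the labels say. Bone marrow was enriched for c-Kit, and LSKCD150+CD48-CD34- cells, the gate for long-term HSCs, were sorted and profiled by DOGMA-seq, which reads open chromatin, RNA and antibody tags of the same cell. There was 1 preparation with 1 ATAC library, and the number of mice in it was not given in the labels. No group was therefore compared with another, and every interval below is an exact 95% interval that covers counting error only, since the cells of 1 library are not replicates.

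Of 3757 barcodes called as cells, 3108 had more than 3000 fragments in peaks and were used, and the limit fell between a cell with 2990 and a cell with 3003 such fragments. These cells held 37137164 fragments, with a median of 11457 per cell and a range of 3977 to 194399. The label of the cells was checked at the promoters of fixed marker genes, where a promoter was called open when at least 2% of cells had a cut site, the end of a fragment, within 500 bp of the start. All 5 HSC marker promoters were open (median 18.3% of cells, range 3.31% to 40%), with *Hlf*, a transcription factor of stem cells, the highest. The median was 0.611% over 5 erythroid markers, of which 2 were open, and 1.06% over 5 neutrophil and granule markers, of which 1 was open. It was 1.06% over 5 monocyte and macrophage markers, 2 of them open, 0.997% over 5 B cell markers, 2 of them open, and 0.676% over 5 T cell markers, with none open. The adult globin gene *Hba-a1* was at 0.129% and *Car1*, a carbonic anhydrase of red cells, at 0.0322%.

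Type I cytokine receptors have no kinase of their own and pass the signal on through bound JAK kinases and STAT transcription factors. *Epor* binds erythropoietin and is needed for red cell production, *Csf3r* binds G-CSF and drives the output of neutrophils, and *Il7r* is the alpha chain for IL-7, on which early lymphoid cells depend. *Csf2rb* is the beta chain shared by the receptors for IL-3, IL-5 and GM-CSF, and *Csf2rb2* is a second, mouse-specific beta chain that serves IL-3. *Csf1r*, the receptor for M-CSF, is of another family, a receptor tyrosine kinase of macrophages and their precursors. Such genes are known to be switched on as cells commit to a lineage, and open chromatin at their promoters or enhancers can be seen before the protein is.

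The sequences on which the comparison of promoters with sites inside the genes turns are given first, 300 bases each. They are the promoter of *Epor* and a site in the first intron of the same gene, a site of *Csf2rb* in its intron 4, the promoter of its neighbor *Csf2rb2*, and the promoter of *Il7r*, the member with the least open chromatin. Promoters are RefSeq sequences of 250 bases before to 50 bases after the RefSeq start (build GRCm38.p6), and the table of promoters held 4 of the 6 genes. Shares of cells are given for the GENCODE start instead, which at *Epor* lies just beyond the last base printed and at *Il7r* within the printed bases. The 2 sites inside genes were read from GRCm38 around the summit of cut sites. That of *Epor* holds the annotated start of a second transcript, Epor-202, and so is also a promoter of the gene. All sequences are written along the strand of the gene. Capitals mark matches, on either strand, to 9 strings that transcription factors are known to prefer. These were AGATAA for GATA factors, TGTGGT for RUNX, GAGGAAGT for PU.1, TTGCNNAA for CEBP, TGANTCA for AP-1, TTCNNNGAA for STAT, CAGCTG for an E-box, CCGGAAGT for ETS and GGGTGTGG for KLF. No marked matches overlapped. The windows were chr9:21963527-21963826 (minus strand), chr9:21962463-21962762 (minus), chr15:78340098-78340397 (plus), chr15:78305672-78305971 (minus) and chr15:9529827-9530126 (minus), in this order.
Epor promoter: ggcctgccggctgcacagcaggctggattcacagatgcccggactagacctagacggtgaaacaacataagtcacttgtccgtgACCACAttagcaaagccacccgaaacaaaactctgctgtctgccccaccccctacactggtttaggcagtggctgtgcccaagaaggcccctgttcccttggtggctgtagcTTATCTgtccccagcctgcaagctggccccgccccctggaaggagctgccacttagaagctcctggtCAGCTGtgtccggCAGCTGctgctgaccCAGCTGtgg
Epor intron 1 site: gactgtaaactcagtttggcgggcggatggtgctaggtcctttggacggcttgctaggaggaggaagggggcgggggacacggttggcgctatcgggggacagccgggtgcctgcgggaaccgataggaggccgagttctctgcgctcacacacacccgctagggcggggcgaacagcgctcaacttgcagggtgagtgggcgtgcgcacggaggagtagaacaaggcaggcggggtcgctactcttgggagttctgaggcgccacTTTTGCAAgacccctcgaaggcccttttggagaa
Csf2rb intron 4 site: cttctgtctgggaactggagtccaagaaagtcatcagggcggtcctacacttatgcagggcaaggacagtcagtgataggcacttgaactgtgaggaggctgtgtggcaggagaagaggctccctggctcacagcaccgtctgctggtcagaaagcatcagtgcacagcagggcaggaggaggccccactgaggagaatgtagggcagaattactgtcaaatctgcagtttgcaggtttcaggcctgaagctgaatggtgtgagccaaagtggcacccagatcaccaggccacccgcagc
Csf2rb2 promoter: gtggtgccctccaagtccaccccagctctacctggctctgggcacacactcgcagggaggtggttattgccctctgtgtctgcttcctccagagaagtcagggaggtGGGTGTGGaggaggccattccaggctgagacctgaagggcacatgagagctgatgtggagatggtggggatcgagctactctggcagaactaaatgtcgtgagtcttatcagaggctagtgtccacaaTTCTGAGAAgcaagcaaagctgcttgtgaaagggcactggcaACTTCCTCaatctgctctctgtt
Il7r promoter: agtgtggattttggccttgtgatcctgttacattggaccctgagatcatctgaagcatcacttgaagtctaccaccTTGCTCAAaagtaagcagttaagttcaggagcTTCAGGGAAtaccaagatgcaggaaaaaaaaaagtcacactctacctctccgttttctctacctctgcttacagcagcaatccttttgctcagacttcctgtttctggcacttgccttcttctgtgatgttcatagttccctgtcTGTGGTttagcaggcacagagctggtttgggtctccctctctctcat

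The *Epor* promoter held 1 GATA string, 1 RUNX string and 3 E-boxes. Over 32851 mouse promoters of this length, 11.2% held the GATA string, 16.8% the RUNX string and 16.3% the E-box. The *Csf2rb2* promoter held 1 match each for PU.1, STAT and KLF, strings found in 3.2%, 8.3% and 3.56% of promoters. In the *Il7r* promoter 1 RUNX, 1 CEBP and 1 STAT string were found, and the CEBP string was present in 10.8% of promoters. The intron 1 site of *Epor* held 1 CEBP string, and the intron 4 site of *Csf2rb* held none of the 9. A match is a run of letters and does not show that a factor was bound. The sequences also differed in base composition. In the intron 1 site of *Epor*, which holds the start of Epor-202, CpG occurred at 0.812 of the rate given by its C and G content. The ratio was 0.266 in the *Epor* promoter, 0.13 in the intron 4 site of *Csf2rb*, 0.134 in the *Csf2rb2* promoter and 0.0647 in the *Il7r* promoter.

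The first comparison asked how open each receptor was at its own promoter, taken as 500 bp either side of the start of the principal transcript of GENCODE. 4 of the 6 promoters reached 2% of cells. Over all protein-coding genes 62.4% did, so the receptors stood near the background and no principal promoter of theirs reached the median of all promoters, 6.95% of cells. *Csf2rb* was highest, with a cut site in 185 of 3108 cells, or 5.95% (5.15 to 6.84), at the 47.7 percentile of all promoters. *Epor* followed with 119 cells, or 3.83% (3.18 to 4.56), then *Csf2rb2* with 113 cells, or 3.64% (3.01 to 4.36), and *Csf3r* with 102 cells, or 3.28% (2.68 to 3.97). The intervals of *Epor* and *Csf2rb2*, and those of *Csf2rb2* and *Csf3r*, overlapped, so the erythroid, IL-3 and granulocyte receptors could not be ordered at this depth. *Csf1r* lay under the limit with 51 cells, or 1.64% (1.22 to 2.15), and its interval included 2%. *Il7r* was lowest, with 10 cells, or 0.322% (0.154 to 0.591), at the 25.5 percentile. Of the 5 annotated starts more than 500 bp from a principal one, that of Epor-202 was above that median, and the 4 others were between 0.193% and 0.547%.

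All 6 principal promoters were poor in CpG, with observed over expected CpG between 0.136 in *Il7r* and 0.282 in *Epor*. Promoters of this kind are mostly closed: of the 11379 with a CpG ratio under 0.6, 31.2% were open and the median was 0.354% of cells, whereas of the 10376 others 96.6% were open with a median of 23.6%. Set among the CpG-poor promoters alone, the receptors stood much higher in the order. *Csf2rb* was at the 81.4 percentile, *Epor* at 75.7, *Csf2rb2* at 75.1, *Csf3r* at 73.8 and *Csf1r* at 66.8. *Il7r*, at the 25.5 percentile of all promoters, was near the middle here at 47.6.

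Of 21 other cytokine and growth factor receptors given for context, 15 had an open promoter, where 62.4% of all protein-coding promoters were open. Their median was 7.56% of cells against 3.46% over the 6 genes. The CpG content of the 21 was not compared with that of the 6 genes, and its part in the difference was not tested. Both genes listed as stem cell receptors were open, with *Kit*, the receptor for stem cell factor and part of the sorting gate, at 27.1% and *Flt3* at 20.3%. The group name is a label of the list and not a result. All 5 receptors of the gp130 family were open (2.19% to 34.6%), with the common signal chain *Il6st* the highest. Of the gamma chain family 5 of 8 were open, and of 3 hormone type receptors only *Ghr*, the growth hormone receptor, at 29.8%. The 3 highest of all were *Crlf2* at 55.1%, *Il3ra* at 41.2% and *Il6st* at 34.6%, and the 3 lowest *Il5ra* at 0.257%, *Il2ra* at 0.322% and *Il2rb* at 0.611%. The other receptor closest in level was *Il2rg* (3.99%) for *Epor*, *Csf3r* and *Csf2rb2*, *Csf2ra* (6.05%) for *Csf2rb*, *Prlr* (1.19%) for *Csf1r* and *Il2ra* for *Il7r*.

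**Figure D1:**
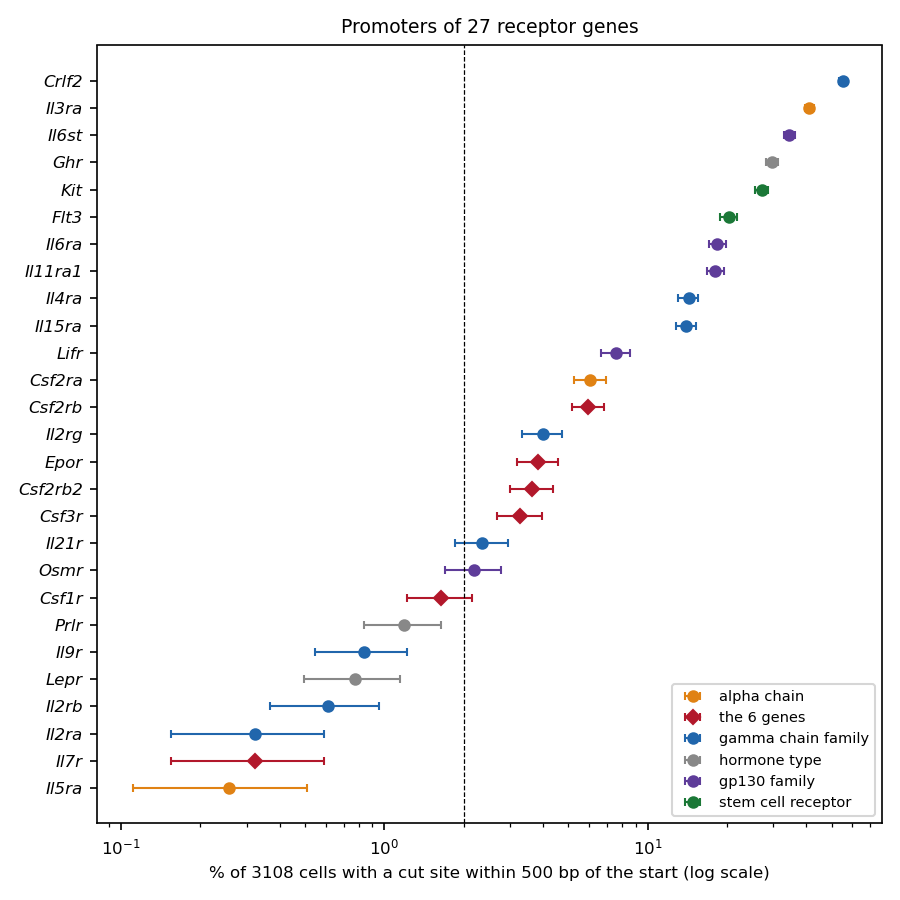
Share of 3108 HSCs with a cut site within 500 bp of the start, for 27 receptor genes, on a log axis. Points are shares and bars exact 95% intervals for counting error, colors are receptor families, red diamonds are the 6 genes and the dashed line is 2%. *Csf2rb*, *Epor*, *Csf2rb2* and *Csf3r* lie between 3.28% and 5.95%, below *Kit* and *Flt3*, whereas *Il7r* at 0.322% is level with *Il2ra*.

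The chains that pair with these receptors were not open to the same degree. A beta chain signals only together with an alpha chain, and of the partners of *Csf2rb* the IL-3 alpha chain *Il3ra* was at 41.2% (39.5 to 43), the GM-CSF alpha chain *Csf2ra* at 6.05% (5.24 to 6.95) and the IL-5 alpha chain *Il5ra* at 0.257% (0.111 to 0.507). Of these 3, *Csf2ra* alone had an interval that overlapped with that of the *Csf2rb* promoter. *Il7r* pairs with the common gamma chain *Il2rg* to bind IL-7 and with *Crlf2* to bind TSLP. *Il2rg* was at 3.99% (3.33 to 4.74) and *Crlf2* at 55.1% (53.3 to 56.9), both above the interval of *Il7r*. *Crlf2* was thus the most open promoter of the receptors measured, and the chain it shares a complex with was among the least open. The CpG content of these partner promoters was not compared either, and its part in the contrasts was not tested.

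The second comparison followed each gene body and 30 kb either side in bins of 500 bp. Over the 6 windows, with the overlap of the neighboring *Csf2rb* and *Csf2rb2* windows counted once, 51 of 908 bins, or 5.62%, were open, that is, had a cut site in at least 2% of cells. Over all 5267565 bins of the genome the share was 1.95%, with a median of 1 cell per bin and a mean of 0.265% of cells. Windows set around genes hold promoters by choice, and the share in like windows around other genes was not measured. Inside the gene bodies 15 of 269 bins, or 5.58%, were open, in 5 of the 6 genes. Open bins next to each other or 1 bin apart were joined, which gave 24 sites. Of these 4 were promoters of the receptors, 3 were within their gene bodies away from a promoter, 7 were promoters of other genes and 10 lay elsewhere in the flanks.

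**Figure D2:**
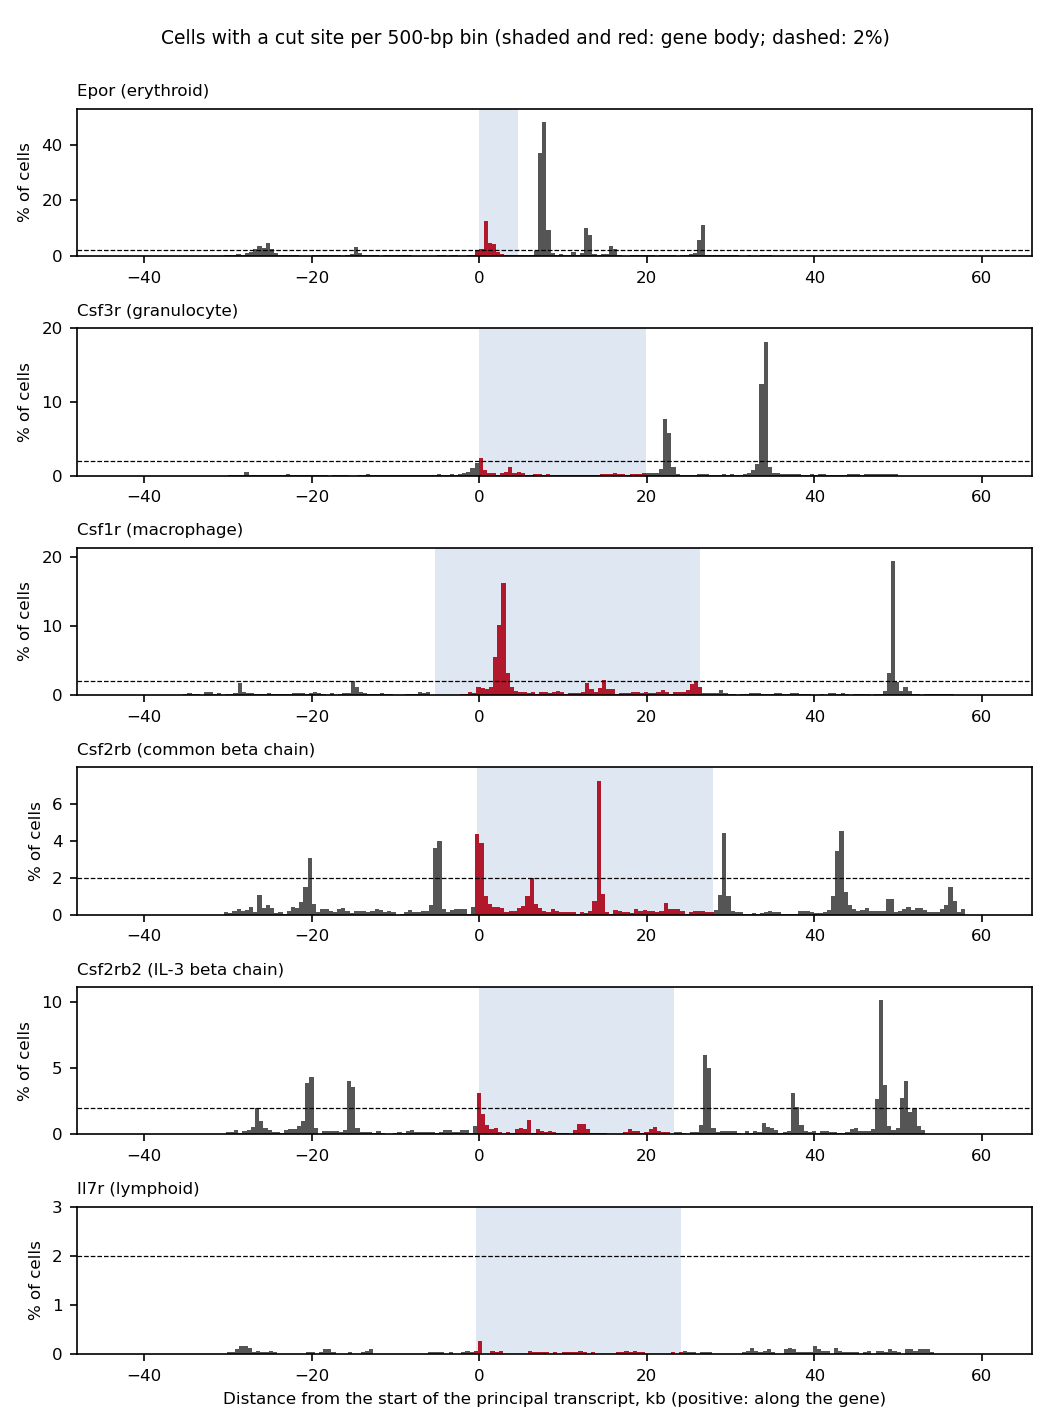
Share of 3108 HSCs with a cut site in each 500-bp bin (vertical axis, percent, scaled for each gene) against the distance from the start of the principal transcript in kb, positive along the gene. Shading and red bars mark the gene body, gray bars the flanks and the dashed line 2%. Among the red bars, *Csf1r* and *Csf2rb* are highest away from the start, *Epor* just after its start and *Csf3r* and *Csf2rb2* at the start, while the highest gray bars of the *Epor*, *Csf3r*, *Csf1r* and *Csf2rb2* windows are higher still and *Il7r* reaches 2% nowhere.

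*Epor*, on the minus strand of chromosome 9 (chr9:21958897-21963506, GRCm38, ENSMUSG00000006235.6, 8 exons), had the densest gene body, with 318.7 cut sites per kb, 11.3 times the mean of the genome of 28.2. 5 of its 11 body bins were open. They formed 1 site, chr9:21961501-21964000, that ran from the start into exon 4 and had a cut site in 561 cells, or 18.1% (16.7 to 19.4). The highest bin was not that of the principal start. It lay in intron 1 with its center 755 bp after the start and was cut in 394 cells, or 12.7% (11.5 to 13.9), 47.8 times the mean bin, and 61 cells held at least 2 fragments there. The summit of cut sites was 893 bp after the start. GENCODE places the start of a second transcript, Epor-202, 942 bp after the principal start and inside this bin, and the promoter window around it was cut in 440 cells, or 14.2% (12.9 to 15.4), against 3.83% around the principal start. The bin therefore counted as a start and not as an internal site. Farther than 1000 bp from any start, the highest bin of the gene was at 1.48% (1.09 to 1.97), 0.648 times the bin of the principal start (0.437 to 0.952). With bins moved by 250 bp this value was 0.74%, so it depends on where the bins fall.

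The flanks of *Epor* were rich in open chromatin, with 20 of 131 bins open in the window as a whole, and 3 of the 6 sites outside the gene were promoters of other genes. The promoter of *Swsap1*, a DNA repair gene, 7755 bp after the *Epor* start, was the highest, with a cut site in 57.5% of cells over its 3 bins. The promoters of *Plppr2* and *Rgl3* were at 12.5% and 10.4%. An intergenic site 12755 bp after the start, chr9:21950001-21951000, was at 11.8% (10.7 to 13). Sites are given by distance alone, and which gene each of them acts on was not tested.

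*Csf3r*, on the plus strand of chromosome 4 (chr4:126024550-126044440, ENSMUSG00000028859.14, 17 exons), was open at its promoter and nowhere else in its body. 1 of 40 body bins was open, that of the start, with 74 cells, or 2.38% (1.87 to 2.98), 8.98 times the mean bin. The lower end of the interval was under the 2% limit, so the bin counts as open only narrowly. The next highest bin of the body, with its center 3701 bp after the start, was cut in 38 cells, or 1.22%. It lay within 1000 bp of a second annotated start, 2742 bp into the gene, whose promoter window was at 0.515% (0.295 to 0.835), and so did not count as internal. Farther than 1000 bp from any start, the highest bin, in intron 3, was at 0.45% (0.246 to 0.755), 0.189 times the promoter bin (0.0987 to 0.338). Cut sites over the body, at 27.3 per kb, were 0.97 times the mean of the genome. The other open sites of the window were the promoters of *Mrps15*, which encodes a protein of the mitochondrial ribosome, at 9.72%, and *Oscp1* at 21.6%. Of the 50-base runs of the promoter bin of *Csf3r*, 20.2% occurred again in the genome, and the part of mapping in the low value was not tested.

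*Csf1r* showed the opposite arrangement. The gene (chr18:61100598-61132149, plus strand, ENSMUSG00000024621.16, 21 exons) has its principal start at position 61105852, and the bin of this start was at 1.19% of cells. The bin with its center 2899 bp farther on, in intron 1, was cut in 504 cells, or 16.2% (14.9 to 17.6), 13.6 times the promoter bin (9.75 to 19.6) and 61.2 times the mean bin of the genome. It was the highest bin found inside any of the 6 genes, and 111 cells held at least 2 fragments in it. The whole site, chr18:61107501-61109500, spanned 4 open bins and had a cut site in 701 cells, or 22.6% (21.1 to 24.1). An enhancer in an early intron of *Csf1r* is well known from macrophages. Its position was not compared with this site here.

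Outside intron 1 the *Csf1r* window held 3 further sites. A bin 14899 bp after the start, in intron 10 of the principal transcript, was at 2.19% (1.7 to 2.77), and an intergenic bin 15101 bp before the start at 2.03% (1.56 to 2.59), so both lay at the limit. The annotated start farthest upstream, 5254 bp before the principal one, was at 0.193% (0.0709 to 0.42). A site 49399 bp after the start, over an exon of the neighbor *Hmgxb3*, was at 19.8% (18.4 to 21.2), and its highest bin, at 19.4%, was the highest of the window. Over the whole body 1109 cells, or 35.7%, had a cut site and the density was 113.1 per kb, 4.01 times the mean of the genome. With 1.26% of the 50-base runs of its body found again in the genome, little of the gene was hidden from mapping.

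*Csf2rb* (chr15:78325752-78353847, plus strand, ENSMUSG00000071713.6, 14 exons) was open both at the promoter and inside the gene. Its promoter site was at 5.98% (5.18 to 6.88). The bin with its center 14261 bp after the start, over intron 4 and the beginning of exon 5, was cut in 225 cells, or 7.24% (6.35 to 8.21), 1.67 times the highest promoter bin (1.34 to 2.08). With bins moved by 250 bp the internal bin was at 5.63%, and a window of 250 bp either side of the start was at 5.28%. The ratio therefore depends on where the bins fall. The summit lay in intron 4, and the 300 bases printed above are centered on it. 2 further sites flanked the gene. An intergenic site before the start, chr15:78320501-78321500, with its summit 4983 bp before the start, was at 5.12% (4.37 to 5.95), and a bin 29261 bp after the start, beyond the end of the gene, was at 4.41% (3.71 to 5.19). The promoter of *Gm26329*, farther on, was at 5.34%.

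*Csf2rb2* (chr15:78282507-78305721, minus strand, ENSMUSG00000071714.7, 14 exons) lies beside *Csf2rb* on the other strand, with the starts head to head. It was open at its start only, with 96 cells, or 3.09% (2.51 to 3.76), in 1 of 47 body bins. Its highest internal bin, in intron 1, was at 1.06% (0.732 to 1.49), 0.344 times the promoter bin (0.224 to 0.515). A gene that resembles its neighbor can lose reads in mapping, and 15.6% of the 50-base runs of the *Csf2rb2* body were also found in the body of *Csf2rb*. None of the runs in either promoter window occurred again in the genome. The internal site of *Csf2rb* had no open counterpart in *Csf2rb2*. Between the 2 starts stood the intergenic site already given, 15530 bp before the start of *Csf2rb2* and hence nearer to *Csf2rb*. Beyond the end of *Csf2rb2*, an intergenic site at chr15:78278001-78279000 was at 7.56% (6.66 to 8.55). Farther on, a site in an intron of *Ncf4*, which encodes a subunit of the phagocyte oxidase, was at 11.6% (10.4 to 12.7) and the *Ncf4* promoter at 4.76% (4.04 to 5.57).

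*Il7r* (chr15:9505788-9530176, minus strand, ENSMUSG00000003882.5, 8 exons) had no open bin among the 170 of its window. The highest, that of the start, was cut in 8 cells, or 0.257% (0.111 to 0.507), 0.971 times the mean bin. The highest internal bin was cut in 2 cells, or 0.0644% (0.00779 to 0.232). Over the whole gene body 31 cells, or 0.997%, had a cut site, and the density of 2.75 cut sites per kb was 0.0974 times the mean of the genome. Bins under the open limit were also low, and were cut on average in 0.035% of cells in the *Il7r* window, 0.108% over the genome, and 0.214% to 0.394% in the other windows. Repeats made up much of the window, with 38.7% of 50-base runs found again in the genome, and 8.4% in the promoter window, 16.8% in the bin of the start and 3.04% in the body. In the 71 bins of the window with under 10% of such runs, which leave out that of the start, the mean was 0.0344% and the highest 0.161% of cells. The part of mapping in the low values was not tested.

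**Figure D3:**
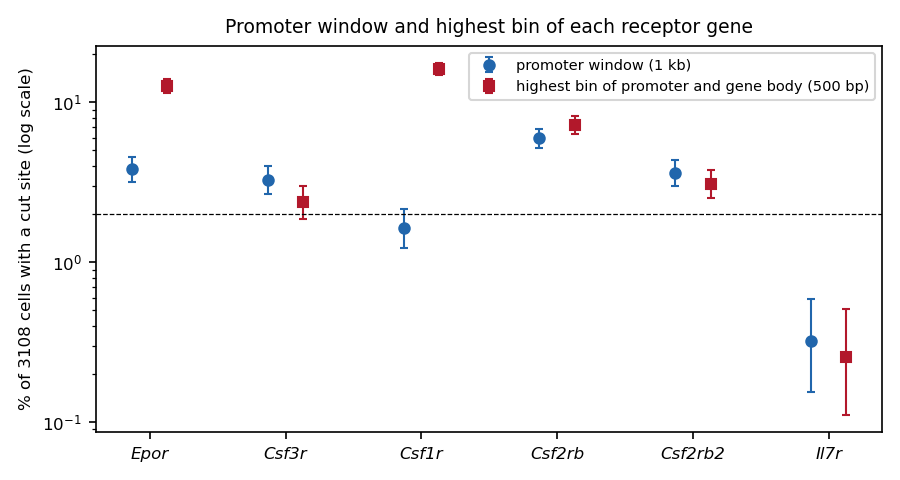
Share of 3108 HSCs with a cut site in the 1 kb promoter window (blue circles) and in the highest 500-bp bin of promoter and gene body (red squares) of each gene, on a log axis, with exact 95% intervals for counting error and a dashed line at 2%. The highest bin exceeds the promoter window at *Epor* (12.7% and 3.83%), *Csf1r* (16.2% and 1.64%) and, with overlapping intervals, *Csf2rb* (7.24% and 5.95%), and the order of the genes differs between the measures. With bins moved by 250 bp the internal bin of *Csf2rb* was at 5.63%, under its promoter window.

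By the highest bin of each gene the order was *Csf1r*, *Epor*, *Csf2rb*, *Csf2rb2*, *Csf3r* and *Il7r*, and of the neighbors in this order the intervals of *Csf2rb2* and *Csf3r* alone overlapped. *Csf1r* was thus next to lowest by its promoter and highest by its highest bin. For the bins farther than 1000 bp from any start, the interval of the ratio to the promoter bin lay under 1 in *Epor*, *Csf3r* and *Csf2rb2*. At *Il7r* the ratio was 0.25 (0.0259 to 1.25), from too few cells to say which was higher.

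The form of the fragments differed between sites. Fragments shorter than the DNA wound around a nucleosome made up 45.6% of all fragments. They were 59.5% (53.1 to 65.7) at the intron 4 site of *Csf2rb*, 57.2% (52.5 to 61.7) in the intron 1 bin of *Epor* and 52.6% (48.6 to 56.5) in that of *Csf1r*, each above the share of the library. At the promoter bin of *Csf3r* the share was 30.6% (21 to 41.5), and at that of *Csf2rb2* it was 41.2% (32.1 to 50.8). A fragment counted when either end lay in the bin, and long fragments have more ways to do so. The library share counts each fragment once. How far this lowers the share of a bin was not measured, so neither bin could be told from the library. Of the 24 sites 12 had an interval above 45.6%, 5 below and 7 around it. The same limit holds for those below. Other open sites of the genome were not counted in this way, so whether these numbers are particular to the receptor loci was not tested. The site over an exon of *Hmgxb3* had the highest share, 76.4% (73.2 to 79.3).

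**Figure D4:**
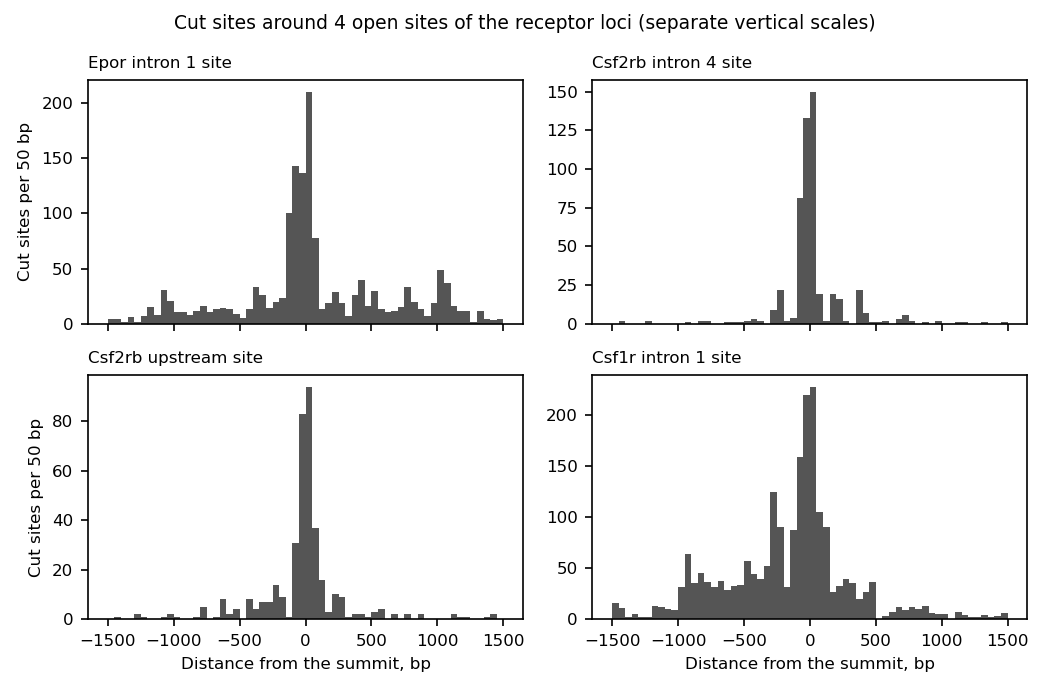
Cut sites of 3108 HSCs per 50 bp (vertical axis, scaled for each panel) against the distance from the summit in bp, positive along the gene, at the intron 1 sites of *Epor* and *Csf1r*, the intron 4 site of *Csf2rb* and the site upstream of *Csf2rb*. The *Csf2rb* sites are narrow, whereas at *Csf1r* and *Epor* cut sites continue well beyond the summit on either side.

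A share of cells depends on depth. When cells were divided by depth into 3 groups of 1036, with medians of 8119, 11457 and 14574.5 fragments, the intron 1 bin of *Csf1r* was cut in 11.5%, 13.6% and 23.6% of cells and that of *Epor* in 9.07%, 11.3% and 17.7%. The intron 4 bin of *Csf2rb* was cut in 4.34%, 8.4% and 8.98%, and the promoter bins of *Csf2rb2* and *Csf3r* in 1.83%, 3.38% and 4.05% and in 1.45%, 2.7% and 2.99%. Each of these 5 bins was cut in more cells in the deeper groups, and their order was the same in all 3. The highest bin of *Il7r* was cut in 2, 0 and 6 cells, and 0 of 1036 allows a share of up to 0.29% by a limit of 3 counts, or 0.355% by the exact interval. The shares of the promoter windows did not all rise with depth. *Epor* was at 3.09%, 2.32% and 6.08%, under *Csf2rb2* (4.05%) and *Csf3r* (3.67%) in the middle group. *Csf1r* was at 0.772%, 2.12% and 2.03%, over the 2% limit in the deeper groups, and *Csf2rb2* at 1.83% in the shallowest group was under it.

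In single cells, 65% (63.3 to 66.7) had a cut site in none of the 6 highest bins, 28.9% in 1 of them and 5.47% in 2, while 20 cells had one in 3 bins and 1 cell in 4. For each of the 15 pairs the number of cells with both was set beside the number that independence gives within 10 groups of like depth. *Epor* and *Csf1r* were cut together in 80 cells against 71.1, a ratio of 1.12 (0.892 to 1.4), and *Csf1r* and *Csf2rb* in 44 against 38.5, a ratio of 1.14 (0.83 to 1.53). *Epor* and *Csf2rb2* gave 20 against 13.4, a ratio of 1.49 (0.909 to 2.3), and *Csf3r* and *Csf1r* 8 against 13.1, a ratio of 0.609 (0.263 to 1.2). For all 15 pairs the interval included 1, so neither joint nor mutually exclusive opening of the receptors was detectable at this depth.

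Marker genes were then counted in cells with and without a cut site in the highest bin of each receptor, as fragments over the marker promoters per 100000 fragments of those cells. HSC markers were alike in cells with the *Csf1r* bin cut, 10.6 (9.87 to 11.4), and without, 10.7 (10.3 to 11), and in cells with the *Epor* bin cut, 10.8 (9.96 to 11.7), and without, 10.6 (10.3 to 11). Erythroid markers were at 1.02 (0.772 to 1.33) in cells with *Epor* and 0.848 (0.75 to 0.956) in cells without. Neutrophil and granule markers were at 0.316 (0.0652 to 0.924) in cells with *Csf3r* and 0.538 (0.465 to 0.619) without. In 1 of 36 comparisons the intervals were apart. Monocyte and macrophage markers were lower in cells with the *Csf1r* bin cut, 0.535 (0.374 to 0.74) from 36 fragments, than in cells without, 0.873 (0.772 to 0.985) from 266 fragments. The cells with the bin cut were also deeper, with a median of 12610 against 11250.5 fragments, and the part of depth in the difference was not tested. For *Csf2rb* the same markers were at 0.511 (0.292 to 0.829) in cells with the bin cut and 0.84 (0.745 to 0.943) without, and for *Csf2rb2* they went the other way, 1.46 (0.878 to 2.28) and 0.789 (0.699 to 0.886), with intervals that overlapped at both genes.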

How the data were processed

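The authors mapped the ATAC reads to mm10 with Cell Ranger ARC 2.0.2, collapsed duplicate read pairs into unique fragments and called cells. They deposited counts of fragments and UMIs for each barcode, and each fragment with its count of read pairs, none of them normalized. The antibody tag counts and the authors' RNA counts per gene were not used here. Chromosome lengths matched GRCm38, and genes were those of GENCODE vM21. Called cells with more than 3000 fragments in peaks were kept, on chromosomes 1 to 19 and X, and doublets were not removed. A cell counted for a bin or window when at least 1 fragment end lay in it. Intervals were exact 95% binomial or Poisson intervals, a count of 0 was given a limit of 3 counts, and depth per cell sets their width. The principal transcript was the APPRIS one, then that of best support, then the longest. All 6 genes were named, neighbors when their start lay in an open bin (*Hmgxb3* was added after its value was seen), and of the other receptors the 3 highest, the 3 lowest, the nearest to each gene and, chosen after their values were seen, known partner chains and others of their families. The genes and lists were chosen with earlier results of these data known, and 1 gene of the lists is not reported here. Alternatives were all called cells, whole fragments in place of ends, fragments of at least 2 read pairs, leaving out the tenth of cells with the most fragments, and other windows, limits and flanks. Counting was tested on simulated data. Analysis used Python 3.11.15, numpy 2.4.6, scipy 1.17.1, pandas 2.3.3 and matplotlib 3.10.9.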

Additional observations from a re-analysis of the deposited data

How the results depend on the processing

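Of 68 values recomputed under other settings, 53 moved by less than their counting interval and 15 moved by more. With fragments of at least 2 read pairs, promoter shares were 2.8% at *Epor*, 2.57% at *Csf3r*, 4.89% at *Csf2rb* and 2.96% at *Csf2rb2*, and internal bins 13.8% at *Csf1r* and 5.92% at *Csf2rb*. Over all called cells these internal bins were at 13.9% and 6.18%. The *Epor* promoter was at 3.11% without the tenth of cells with the most fragments and at 2.77% in a window of 250 bp either side. With bins moved by 250 bp the internal bin was 0.74% at *Epor* and 5.63% at *Csf2rb*. Open bins numbered 85 of 908 at a limit of 1% of cells (9.36%, against 3.37% of the genome), 20 at a limit of 5% (2.2%, against 0.875%) and 28 of 508 with 10 kb either side (5.51%, close to the 5.62% of the wider windows), and for the other moves the cause was not tested. No paired analysis was possible because there was 1 library and no test. The *Il7r* promoter share rested on 10 cells, so its interval is wide relative to its value.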
